A study of Mus musculus with 11 samples.

Results

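The glycerol channel gene Aqp9, the cytokine gene Il7 and 8 genes of fatty acid handling were followed in splenic CD8+ Tregs of young and middle-aged mice. The 10 genes were chosen from a table of 54532 genes by their symbols, for their roles in glycerol uptake, triglyceride synthesis, lipolysis, fatty acid binding and fatty acid oxidation. They were selected by a choice made with the age difference in view, so the age values below are descriptions. Counts of genes called for age are given beside those over all genes and are not read as tests of the 10. The other 8 were the fatty acid binding protein genes Fabp3 and Fabp5, the triglyceride synthesis genes Dgat1 and Dgat2, the lysosomal lipase gene Lipa and the oxidation genes Cpt1a, Acadl and Acadm.

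In memory CD8+ T cells, interleukin 7 induces the channel aquaporin 9, which lets glycerol into the cell. Glycerol and fatty acids are joined into triglyceride, which the lysosome can break down again, and the released fatty acids are carried into mitochondria and oxidised. Interleukin 7 itself is known mainly as a product of stromal cells, while T cells carry its receptor.

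The study sequenced RNA of CD8+CD44+Ly49+CD122+ cells, called CD8+ Tregs, sorted by flow cytometry from the spleens of wild-type mice. Young mice were 2 to 3 months old, and middle-aged mice, called old in the labels, were 10 to 12 months old. There were 3 young male, 2 middle-aged male, 3 young female and 3 middle-aged female libraries, all wild type. The study calls its replicates biologically independent, and whether cells of several mice were pooled for a library is not given in the sources used here.

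Libraries held 6135736 to 24394532 counts, and young male 1 and young female 1, with 8421396 counts, were the only ones below 10000000. Levels are given as CPM (counts-per-million), with library sizes scaled by the trimmed mean of M values. A count of 3 was worth 0.543 CPM in young male 1, 0.417 CPM in young female 1 and 0.119 to 0.177 CPM in the other 9 libraries. All 8 CD8 T cell markers, among them Cd3e and Cd8a, were detected, with sums of 6714 to 11470 CPM over the young libraries and 6661 to 10530 CPM over the middle-aged ones. Middle-aged female 2 stood apart for neutrophil markers, with 1834 CPM over 8 of them, against 0 to 27.1 CPM for the young and 10.3 to 89.7 CPM for the other 4 middle-aged libraries. Macrophage markers summed to 310 CPM in young male 3, 206 CPM in young female 3 and 153 CPM in middle-aged female 2, against 16.1 to 74.1 CPM elsewhere. Erythroid and platelet markers summed to 134 CPM in young male 3 and 112 CPM in young female 1, against 0.761 to 35.0 CPM elsewhere. In bulk RNA, fewer cells of a type and less RNA per cell cannot be told apart.

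Promoter sequences of 6 of the 10 genes were found in RefSeq (GRCm38.p6), and each window below holds the 250 bases before a start site, 5′ to 3′ on the gene's strand. Aqp9 and Fabp3 are shown because their young and middle-aged libraries did not overlap, and Cpt1a and Acadm because their windows held the hexamer AGGTCA, part of the sites of several nuclear receptors of lipid metabolism. The windows are chr9:71163290-71163539 (minus strand) for Aqp9, chr4:130308488-130308737 (plus strand) for Fabp3, chr19:3323051-3323300 (plus strand) for Cpt1a and chr3:153944644-153944893 (minus strand) for Acadm. RefSeq start sites can differ from the Ensembl gene spans given below. The Aqp9 window lies inside the span of that gene, and the Fabp3 window lies partly inside its own. Capitals mark the hexamer, which lies on the opposite strand in both windows and so reads TGACCT.
Aqp9: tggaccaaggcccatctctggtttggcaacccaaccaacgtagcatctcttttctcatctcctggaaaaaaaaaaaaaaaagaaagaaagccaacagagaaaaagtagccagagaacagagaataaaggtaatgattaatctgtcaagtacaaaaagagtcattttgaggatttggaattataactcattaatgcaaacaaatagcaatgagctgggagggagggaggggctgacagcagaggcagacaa
Fabp3: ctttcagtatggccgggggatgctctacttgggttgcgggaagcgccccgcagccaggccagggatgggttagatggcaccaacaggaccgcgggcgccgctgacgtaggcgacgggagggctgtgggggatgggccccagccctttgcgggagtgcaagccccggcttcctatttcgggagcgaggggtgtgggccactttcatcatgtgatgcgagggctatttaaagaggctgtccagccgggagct
Cpt1a: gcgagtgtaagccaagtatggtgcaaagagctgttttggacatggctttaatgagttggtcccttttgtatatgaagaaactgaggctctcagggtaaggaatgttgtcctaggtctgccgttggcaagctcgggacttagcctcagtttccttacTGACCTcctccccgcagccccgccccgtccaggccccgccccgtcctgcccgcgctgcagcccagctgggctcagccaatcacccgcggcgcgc
Acadm: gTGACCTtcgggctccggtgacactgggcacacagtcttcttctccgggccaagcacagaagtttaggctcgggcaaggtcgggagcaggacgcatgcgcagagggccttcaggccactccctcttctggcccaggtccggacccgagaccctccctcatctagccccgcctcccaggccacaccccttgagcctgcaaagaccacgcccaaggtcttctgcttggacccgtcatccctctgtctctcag

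The hexamer AGGTCA began 94 bases before the start of Cpt1a and 249 bases before that of Acadm, and 14.0% of 32851 RefSeq windows of the same length held it on either strand. A direct repeat of AGGTCA with 1 base between the copies, a form bound by PPAR and RXR pairs, was found in 0.0335% of windows and in 0 of 7 windows of the 6 genes, with 2 start sites for Aqp9. TTCNNNGAA, the letters of a STAT5 site downstream of the interleukin 7 receptor, occurred in 7.02% of windows and in 0 of the same 7. These counts describe letters in a window and not binding.

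Across age, the libraries of Aqp9, Il7 and Fabp3 did not overlap, and all 3 were higher in middle-aged mice. Such a gap, with middle-aged mice higher, was seen for 1.01% of all 13129 genes tested. A gap with middle-aged mice lower was seen for 0.297% of genes and for 0 of the 10. The fitted log2 fold change, middle-aged over young, was above 0 for 7 of the 10 genes and below 0 for 3, with a median of 0.29 against 0.0028 over all genes tested. Since the choice of the genes used this contrast, nothing is read from these counts.

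Il7 (ENSMUSG00000040329, GRCm38 chr3:7569994-7613760, minus strand) encodes the cytokine. Its young libraries held 0 counts in 5 of 6 and 2 counts in young female 3, or 0.115 CPM. Middle-aged males had 0.808 and 0.708 CPM, from 17 and 12 counts. Middle-aged females had 2.07, 0.543 and 0.996 CPM, from 39, 13 and 21 counts. All 5 middle-aged libraries were above the young ones, at a low level whose smallest value was about what 3 counts were worth in young male 1. Summed over libraries, 2 young and 102 middle-aged counts gave a ratio of 48.8 after scaling by library size. This ratio pools libraries, leaves out their spread and describes a gene chosen with this contrast in view. The fitted log2 fold change of 5.24 (SE 1.00) depends on the small count added to zeros. Il7 passed the filter on low counts through its middle-aged libraries.

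Interleukin 7 is made by fibroblastic stroma, and 6 of 10 stromal and endothelial markers were detected. Pdgfra, Pdpn, Ccl19 and Ccl21a were at 0 in all 11 libraries. Col1a1 reached 0.794 CPM, in a middle-aged library. Col1a2 reached 1.41 CPM and Cdh5 0.796 CPM, both in young libraries, where Il7 was at most 0.115 CPM. Of the 10 markers 1 had a higher mean in middle-aged libraries, and mean Cdh5 was 0 CPM there. Mean Col1a1 was 0.0957 CPM at the young and 0.192 CPM at the older age, and mean Col1a2 0.235 and 0.0852 CPM. The sum over that list was 22.5 to 93.2 CPM in young and 20.02 to 68.6 CPM in older libraries, nearly all of it Pecam1, which lymphocytes also express. The part of such cells in the Il7 counts was not tested.

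Aqp9 (ENSMUSG00000032204, chr9:71110659-71168682, minus strand) encodes the glycerol channel. Young libraries ranged from 10.4 to 42.7 CPM with a median of 30.2 CPM. Middle-aged males had 69.4 and 133.5 CPM, and middle-aged females 96.5, 130.2 and 140.7 CPM. The lowest middle-aged library was thus above the highest young one. Means were 30.1 ± 11.6 CPM (SD, n = 6) and 114 ± 30.2 CPM (SD, n = 5), and the fitted fold was 3.76, with a log2 fold change of 1.91 (SE 0.35). Per length, Aqp9 stood above 56.7% of tested genes in young and above 82.2% in middle-aged libraries.

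Neutrophils can express Aqp9, and all 8 neutrophil markers had a higher mean in middle-aged libraries. In 4 of the 5 middle-aged libraries the markers and Aqp9 had the same order: 10.3 and 69.4 CPM in male 1, 38.3 and 96.5 CPM in female 1, 51.7 and 133.5 CPM in male 2, and 89.7 and 140.7 CPM in female 3. In young libraries they also had the same order but for young male 1, with 27.1 CPM of the markers and 26.8 CPM of Aqp9. Young female 1 was lowest for both, at 0 and 10.4 CPM, and young male 3 followed at 6.97 and 28.2 CPM. Young female 3 had 10.2 and 32.1 CPM, young male 2 13.1 and 40.4 CPM, and young female 2 24.1 and 42.7 CPM. Middle-aged male 1 had a lower marker sum than young male 1 (27.1 CPM), young female 2 (24.1 CPM) and young male 2 (13.1 CPM), and more Aqp9 than all 3. Middle-aged female 2, with 1834 CPM of the markers, had 130.2 CPM of Aqp9, below the 133.5 and 140.7 CPM of the libraries with 51.7 and 89.7 CPM of the markers. Without middle-aged female 2, the log2 fold change was 1.87 for Aqp9, 5.52 for Il7 and 4.91 for Fabp3. The part of these markers in the Aqp9 difference was not tested.

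**Figure D1:**
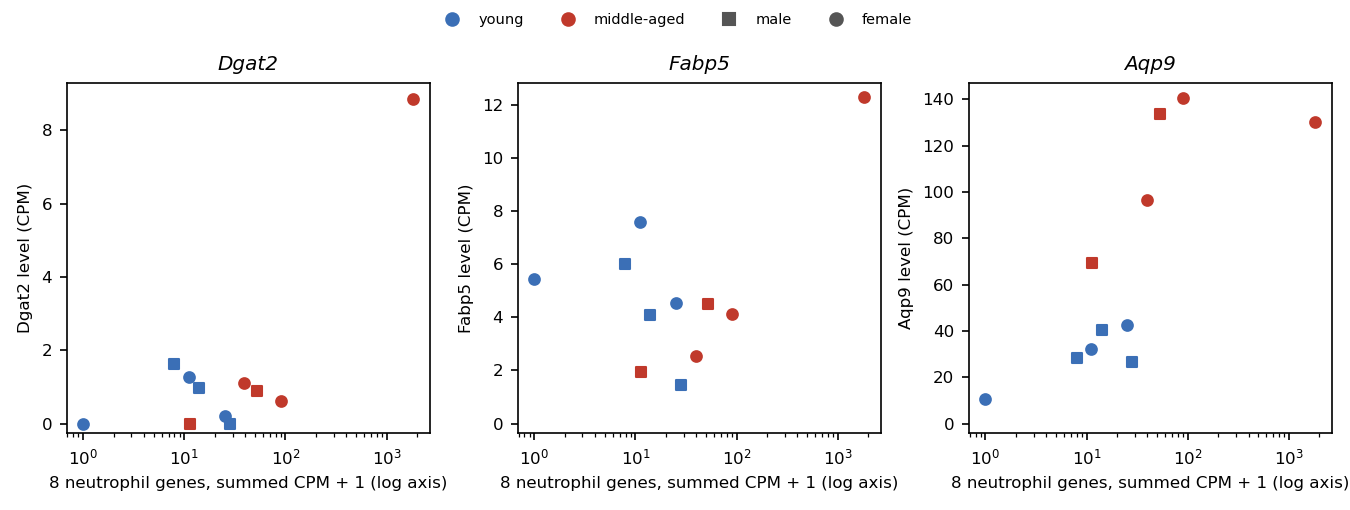
Levels of Dgat2, Fabp5 and Aqp9 in CPM (vertical axes) against the summed CPM of 8 neutrophil markers plus 1 on a log axis, 1 point per library, with squares for males and circles for females. Middle-aged female 2, at 1834 CPM of the markers, was highest for Dgat2 (8.86 CPM) and Fabp5 (12.3 CPM) and within the middle-aged range for Aqp9 (130.2 CPM).

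The diacylglycerol acyltransferases Dgat1 (ENSMUSG00000022555, chr15:76502015-76511953, minus strand) and Dgat2 (ENSMUSG00000030747, chr7:99153658-99182719, minus strand) join the last fatty acid to triglyceride. Dgat1 ranged from 11.4 to 36.6 CPM in young libraries with a median of 27.6 CPM. Middle-aged males had 51.5 and 25.7 CPM of Dgat1, and middle-aged females 24.4, 36.1 and 32.4 CPM. The groups overlapped, with a log2 fold change of 0.38 (SE 0.32) that was 0.10 without middle-aged male 1. Dgat2 was at 0 in young male 1 and young female 1 and at most 1.62 CPM in the other 4 young libraries. In middle-aged males it was 0 and 0.885 CPM, and in middle-aged females 1.11, 8.86 and 0.616 CPM. Only middle-aged female 2 was above the young range, and the log2 fold change of Dgat2 was 1.29 (SE 1.61) with it and -0.08 without it.

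Lipa (ENSMUSG00000024781, chr19:34492318-34527474, minus strand) encodes lysosomal acid lipase, which frees fatty acids from stored triglyceride. Young libraries ran from 35.7 to 83.9 CPM with a median of 77.2 CPM, the lowest being young female 1 and young male 1. Middle-aged males had 45.4 and 55.4 CPM, and middle-aged females 39.3, 64.4 and 54.8 CPM. All 5 lay inside the young range through young male 1 and young female 1, the 2 shallow libraries, while the other 4 young libraries, at 74.9 to 83.9 CPM, were above all 5. The log2 fold change of Lipa was -0.34 (SE 0.28) over 11 libraries and -0.63 over the 9 with more than 10000000 counts. Those 9 lack the libraries with replicate number 1 in young mice only, so the ages differ there in replicate numbers too. Within number 1 the difference in mean log2 CPM was 0.18.

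The fatty acid binding proteins carry fatty acids within the cell, and Fabp3 (ENSMUSG00000028773, chr4:130308595-130315463, plus strand) is the heart form. Young libraries ranged from 0, in 3 of 6, to 0.657 CPM, or 14 counts, with a median of 0.0576 CPM. Middle-aged males had 6.80 and 4.19 CPM of Fabp3, from 143 and 71 counts. Middle-aged females had 3.97, 2.05 and 2.94 CPM, from 75, 49 and 62 counts. The lowest middle-aged library was above the highest young one. Summed counts of 22 and 400 gave a scaled ratio of 17.4, which like that of Il7 pools libraries and describes a gene chosen with this contrast in view. The fitted log2 fold change was 4.87 (SE 0.93), which like that of Il7 depends on the count added to zeros. Fabp3 also passed the filter only with its middle-aged libraries.

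Reads of Fabp3 could be shared with other genes, since 50.1% of its 793 transcript 31-mers also occur in other genes' transcripts in the GENCODE annotation, 35.2% in the pseudogene Fabp3-ps1. That pseudogene held 0 to 2 counts a library. Zcchc17, on the opposite strand over the 3′ end of Fabp3, held 1171 to 3341 counts in every library, the 3 young libraries with 0 counts of Fabp3 included. Whether reads were counted by strand is not given in the sources used here. None of the 10 genes shared a 31-mer with another of them.

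Fabp5 (ENSMUSG00000027533, chr3:10012548-10016607, plus strand), the epidermal form, ranged from 1.45 to 7.60 CPM in young libraries with a median of 4.98 CPM. Middle-aged males had 1.95 and 4.49 CPM, and middle-aged females 2.54, 12.3 and 4.13 CPM. The highest value was again that of middle-aged female 2, and the log2 fold change was -0.06 (SE 0.55) with it and -0.54 without it.

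Carnitine palmitoyltransferase 1a, from Cpt1a (ENSMUSG00000024900, chr19:3323301-3385732, plus strand), admits long fatty acids to the mitochondrion. Cpt1a had 4 counts, or 0.723 CPM, in young male 1 and 19.9 to 65.4 CPM in the other young libraries, with a median of 47.4 CPM over the 6. Middle-aged males had 26.2 and 40.5 CPM, and middle-aged females 33.5, 43.9 and 71.4 CPM. The groups overlapped, with a log2 fold change of 0.07 (SE 0.69), which was -0.14 without young male 1, the shallowest library, and -0.39 in the 9 deep libraries. As for Lipa, those 9 lack replicate number 1 in young mice only.

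Acadl (ENSMUSG00000026003, chr1:66830839-66863277, minus strand) and Acadm (ENSMUSG00000062908, chr3:153922357-153944632, minus strand) encode the dehydrogenases that begin the oxidation of long and medium chains. Acadl ranged from 43.0 to 88.9 CPM in young libraries with a median of 82.5 CPM. In middle-aged males it was 66.4 and 96.6 CPM, and in middle-aged females 84.9, 93.4 and 81.4 CPM. The groups overlapped, with a log2 fold change of 0.20 (SE 0.24), which was 0.063 without young female 1 and -0.037 in the 9 deep libraries. Acadm ranged from 63.8 to 168.2 CPM in young libraries with a median of 84.7 CPM, the highest being young male 1. In middle-aged males it was 88.9 and 61.4 CPM, and in middle-aged females 106.2, 67.8 and 69.1 CPM. These overlapped too, with a log2 fold change of -0.24 (SE 0.29), which was -0.024 without young male 1 and 0.051 in the 9 deep libraries. For Acadl and Acadm as well, the 9 deep libraries lack replicate number 1 in young mice only.

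**Figure D2:**
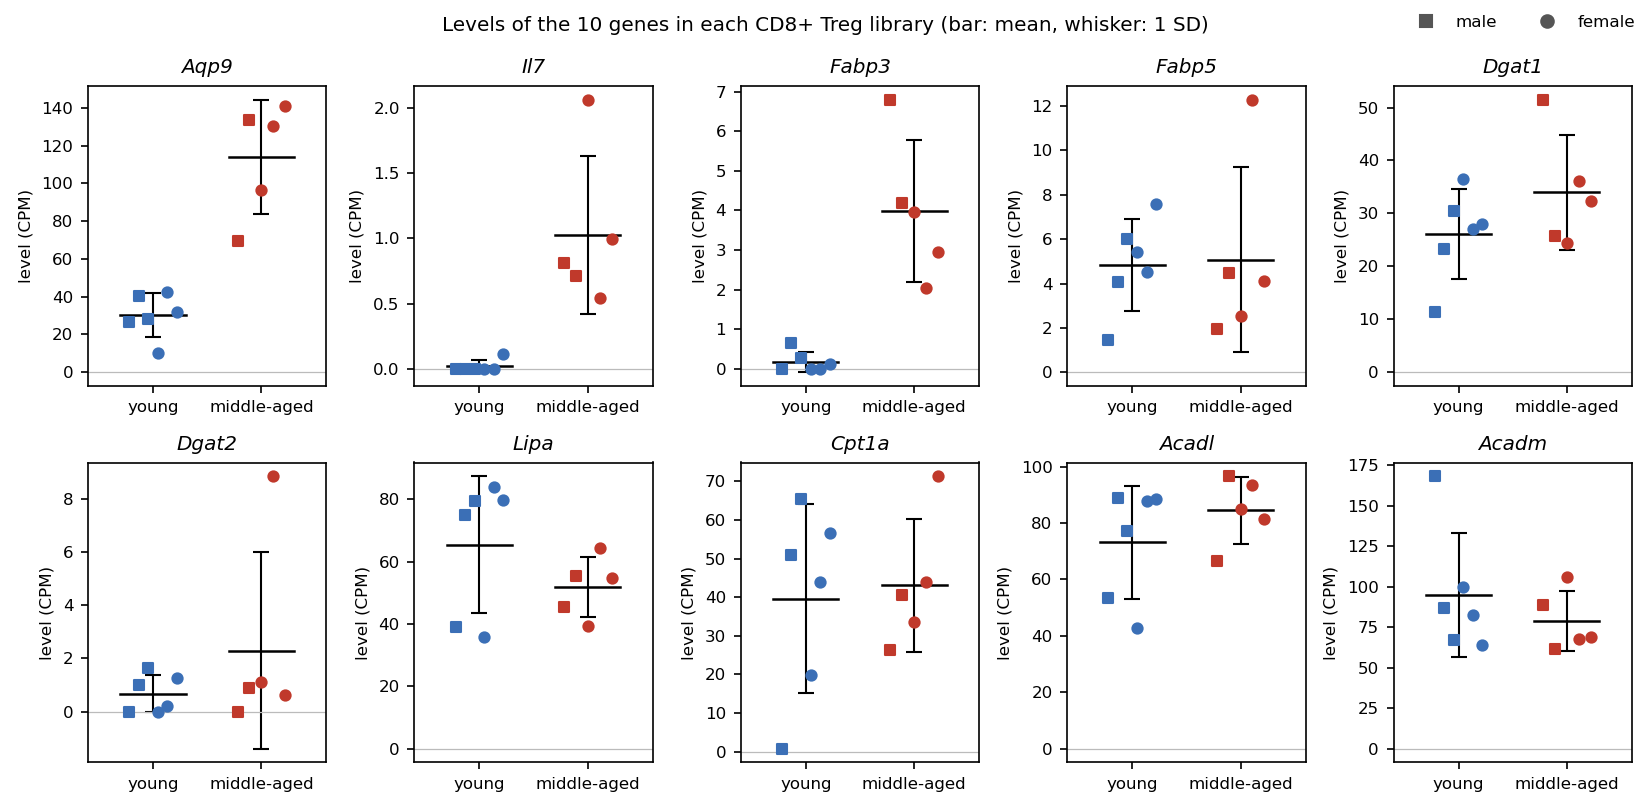
Level in CPM (vertical axis) of each gene in each library, 1 panel per gene, with young libraries in blue, middle-aged in red, squares for males, circles for females, a bar at the mean and a whisker of 1 SD. The 5 middle-aged libraries lie above the 6 young ones for Aqp9, Il7 and Fabp3 and overlap them for the other 7 genes.

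Libraries carry replicate numbers 1 to 3, which no label ties to a batch, yet libraries with one number were alike in how counts leaned to gene length. The slope of log2 level on log2 length ran from -0.265 to -0.0944 in libraries numbered 1, from 0.0142 to 0.0887 in those numbered 2 and from 0.158 to 0.183 in those numbered 3. Taken within each number, from 1 to 3, middle-aged minus young mean log2 CPM was 2.28, 1.66 and 2.22 for Aqp9. It was 3.68, 2.73 and 2.81 for Il7 and 5.59, 3.39 and 3.35 for Fabp3, all above 0. Dgat1, at 0.79, 0.28 and 0.15, was also above 0 within each number. The sign changed between numbers for Fabp5, Dgat2, Lipa, Cpt1a, Acadl and Acadm, and the largest of their values was 2.87 for Cpt1a within number 1, which holds young male 1.

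**Figure D3:**
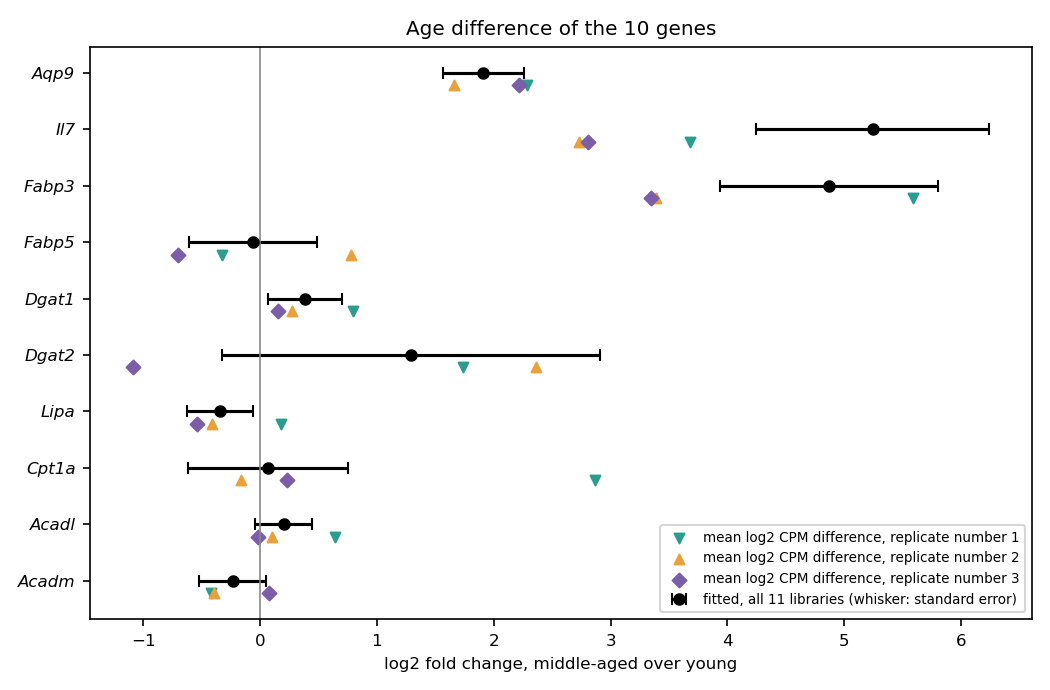
Log2 fold change, middle-aged over young (horizontal axis), for each gene, with the value fitted over 11 libraries as a black point with a whisker of 1 standard error and the difference in mean log2 CPM within each replicate number as coloured symbols. The standard error is the size of the log2 fold change divided by the square root of its F statistic in the edgeR fit. Aqp9, Il7, Fabp3 and Dgat1 lie right of 0 within all 3 numbers.

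In the edgeR quasi-likelihood fit with sex as a term, 0.0229% of genes (3 of 13129) passed an adjusted p of 0.05 for age, and 0 of the 10 genes did. At an unadjusted p under 0.05 the share was 2.99% of all genes (393) and 3 of the 10. DESeq2 called 126 genes, 0.708% of those it tested, and limma voom 138, or 1.05%, and each of these tools called the same 3, Aqp9, Il7 and Fabp3. These counts too describe a contrast that the choice of the genes used, so nothing is read from the tools naming the same genes. Il7 and Fabp3 were also among the tested genes of edgeR and limma voom only through their middle-aged libraries.

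Sex was a contrast the choice did not use. Of all genes tested 0.0381% (5) were called between sexes by edgeR, with 99 at an unadjusted p under 0.05, and 0 of the 10 genes reached either mark. DESeq2 called 8 genes and limma voom 6, with 0 of the 10 among them. Fabp3 had the smallest p of the 10, with a log2 fold change, female over male, of -1.73 (SE 0.88, adjusted p = 1.00, edgeR). For Aqp9 the female over male log2 fold change was 0.03 (SE 0.34, adjusted p = 1.00, edgeR). A p above the threshold does not show equal levels in the sexes.

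Whether the age difference itself differed between sexes was tested as an interaction, which edgeR called for 0 of 13129 genes (0%), with 158 at an unadjusted p under 0.05 and 0 of the 10 genes among these. DESeq2 called 1 gene and limma voom 0. For Aqp9 the mean log2 CPM was higher in middle-aged mice by 1.62 in males and 2.31 in females, with an interaction of 0.43 (SE 0.71, adjusted p = 1.00, edgeR). For Il7 the same differences were 2.97 in males and 3.05 in females, and for Fabp3 4.08 and 4.42, values that depend on the prior count added to zeros. The fitted interactions were -2.16 (SE 1.68) for Il7 and 1.98 (SE 1.68) for Fabp3, and neither was called. Dgat2 had the interaction of smallest p among the 10, at 3.83 (SE 2.68, adjusted p = 1.00, edgeR), with differences of -0.84 in males and 2.47 in females, the latter holding middle-aged female 2.

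Compared per kilobase of the gene length given with the counts, Acadl had the highest level of the 10 genes, 39.1 ± 8.54 CPM per kb (SD, n = 11). It was above Acadm in 9 of 11 libraries. Acadm (22.3 ± 7.85) and Lipa (19.97 ± 6.11) followed in CPM per kb, with a difference within their spread. Aqp9 (16.5 ± 11.7) came next over all 11 libraries, but its order against Lipa turned with age. Lipa was above Aqp9 in 6 of 11 libraries, which were the young ones, and below it in every middle-aged library. Mean Lipa was 22.1 CPM per kb in young and 17.5 in middle-aged libraries. Aqp9 averaged 7.27 CPM per kb in young and 27.5 in middle-aged libraries. Dgat1 (9.73 ± 3.27) and Cpt1a (9.58 ± 4.78) were alike within their spread, and Cpt1a was above Fabp3 in 10 of 11 libraries. Fabp3 (2.32 ± 2.79) and Fabp5 (1.39 ± 0.846) overlapped. Their means were 0.214 and 1.36 CPM per kb in young and 4.85 and 1.42 CPM per kb in middle-aged libraries. This turn of their order depends on the lengths used, 823 bases for Fabp3 and 3567 for Fabp5. In CPM, mean Fabp5 was above mean Fabp3 at both ages, at 4.85 against 0.176 in young and 5.08 against 3.99 in middle-aged libraries. Fabp5 was above Dgat2 (0.458 ± 0.822) in all 11, and Il7 was lowest at 0.0840 ± 0.115 CPM per kb. Among tested genes Fabp3 went from above 4.68% in young to above 47.8% in middle-aged libraries. Fabp3 was among the tested genes only through its middle-aged libraries and was chosen with this contrast in view, so nothing is read from this rise.

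The genes most like Aqp9, Il7 and Fabp3 in pattern were found by the root mean square difference of centred log2 CPM over the 11 libraries. For Aqp9 they were Stard10 (0.36), Kcnip3 (0.50) and Kcnj8 (0.51), against a median of 1.31 over all genes tested. For Il7 they were Fcgr2b (0.53), Serpina3g (0.65) and Pawr (0.65), against 1.71, and for Fabp3 Nccrp1 (0.43), Svip (0.87) and Enpp2 (0.87), against 2.30. Each median follows the gene's own spread over the libraries, which includes the age difference in view when the genes were chosen. A gene with a like age difference therefore comes out close. The libraries also share their depth and number in all of these comparisons, so the values are descriptions.

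Other genes of the same pathways were taken from 9 lists by function, of which 113 of 156 genes were tested for age. Under edgeR 0 of the 113 were called, and 4 had an unadjusted p under 0.05, 3.54% against 2.99% of all genes. Limma voom, with the same filter, called 3 of the 113, where it called 138 of all 13129 genes, or 1.05%. DESeq2 called 2 pathway genes and 126 of 17796 genes, or 0.708%. Its set of tested genes was wider, and its number of pathway genes tested was not counted. The log2 fold change was above 0 for 77 (68.1%) against 50.4% of all genes, with a median of 0.09 against 0.0028.

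Triglyceride synthesis held 11 tested genes, 6 above and 5 below 0, with a median log2 fold change of 0.0062. Gpat3, which adds the first fatty acid to glycerol 3-phosphate, had 21.5, 17.5 and 10.3 CPM in young males and 0.556, 14.6 and 11.9 CPM in young females. In middle-aged libraries it had 0.143 and 0.177 CPM in males and 0.794, 1.59 and 0.948 CPM in females. Young female 1, with 4 counts, was the only young library within the middle-aged range. Its log2 fold change was -4.31 (SE 0.98, adjusted p = 0.334, edgeR), and DESeq2 and limma voom called it. Agpat3, which adds the next fatty acid, was the only 1 of the 113 genes whose groups did not overlap, a share near the 1.01% of all genes, at 177 ± 22.5 CPM (SD) over the 6 young libraries against 221 ± 21.4 CPM (SD) over the 5 middle-aged ones. Its log2 fold change was 0.32 (SE 0.18, adjusted p = 1.00, edgeR). Lpin1, which makes diacylglycerol, averaged 112 and 197 CPM (log2 fold change 0.81), and Agpat2 48.7 and 48.6 CPM.

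Among glycerol channels and glycerol phosphate enzymes, 4 of 5 tested genes had a log2 fold change above 0, with a median of 0.11. Aqp3, another glycerol channel, averaged 33.4 CPM at the young and 40.8 CPM at the older age, a log2 fold change of 0.29, and Gpd1l and Gpd2 had log2 fold changes of 0.18 and 0.09. Lipid droplet and lipolysis genes were above 0 in 11 of 11, with a median of 0.17 and 0 called. They included the lipase Pnpla2, at 76.4 and 82.3 CPM, and its inhibitors G0s2, at 94.1 and 105 CPM, and Hilpda, at 39.7 and 44.2 CPM.

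Of 12 lysosomal genes 8 were above 0, with a median log2 fold change of 0.11. Npc1, which exports cholesterol from the lysosome, averaged 15.6 ± 7.63 CPM (SD) over the 6 young libraries and 29.8 ± 3.82 CPM (SD) over the 5 middle-aged ones, with a log2 fold change of 0.94 (SE 0.37, adjusted p = 1.00, edgeR). The more abundant Psap, at 457 and 523 CPM, Npc2, at 282 and 254 CPM, and Hexa had log2 fold changes of 0.17, -0.15 and 0.25.

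Fatty acid uptake, binding and activation had 6 of 11 genes above 0 (median 0.04), with Dbi at -0.45, Acsl5 at 0.29 and Acsbg1 at 0.20 on the log2 scale. Oxidation had 16 of 27 above 0 (median 0.03), with the thiolase Acaa2 at -0.12, Etfa at -0.13 and Eci1 at 0.11. Synthesis and desaturation had 9 of 13 above 0 (median 0.09), with Acly at 0.04, Elovl5 at 0.13 and Elovl1 at 0.09. Of the transcription factors of fatty acid genes 10 of 12 were above 0 (median 0.07), with Nr1h2 at 0.11, Rxrb at 0.02 and Mlx at 0.12. All of these genes had an adjusted p of 1.00 in edgeR.

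The interleukin 7 receptor and signalling list had 7 of 11 genes above 0, with a median log2 fold change of 0.30. The receptor gene Il7r averaged 446 CPM at the young and 453 CPM at the older age, and Il2rg 1025 and 909 CPM. The kinase gene Jak1 had a log2 fold change of -0.03. Socs3, which curbs cytokine signalling, had 97.8, 72.5 and 117 CPM in young males and 56.2, 93.4 and 75.1 CPM in young females. Middle-aged males had 159 and 225 CPM of Socs3, and middle-aged females 107, 191 and 202 CPM. Only middle-aged female 1 lay within the young range, with a log2 fold change of 1.09 (SE 0.24, adjusted p = 0.321, edgeR), and DESeq2 and limma voom called the gene. Socs1, of the same family, had a log2 fold change of 0.85 (SE 0.31, adjusted p = 1.00, edgeR).

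**Figure D4:**
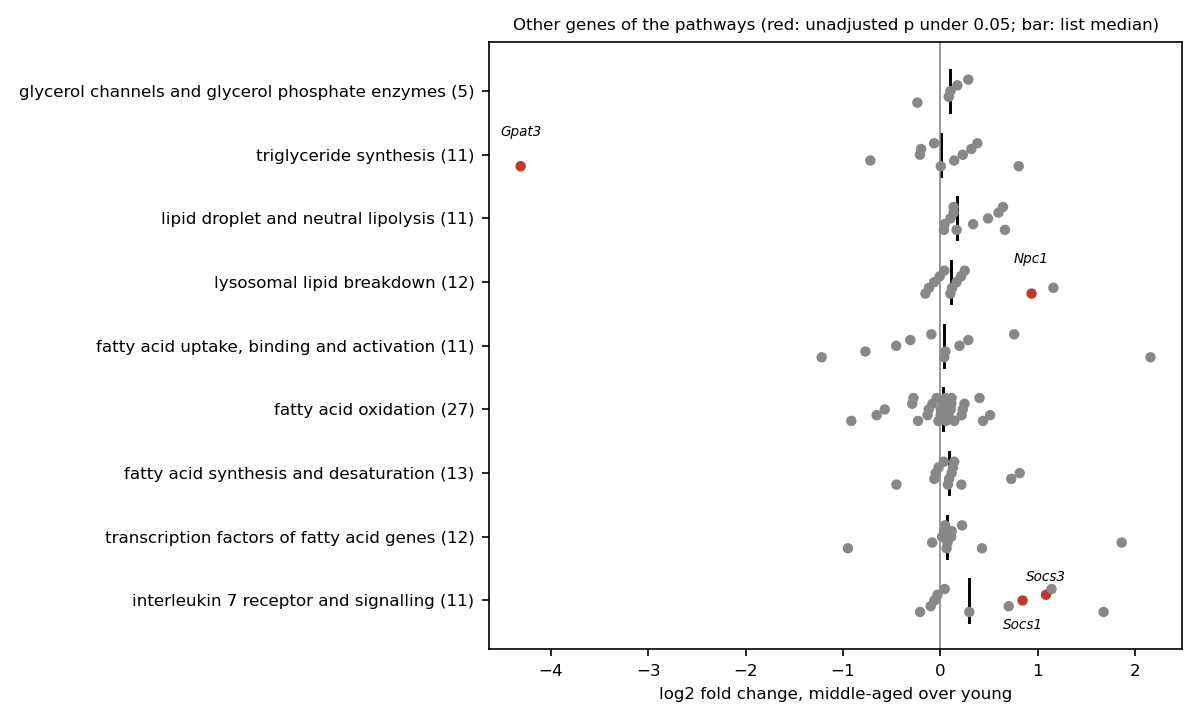
Log2 fold change, middle-aged over young (horizontal axis), of 113 tested genes in 9 functional lists (vertical axis, number tested in brackets), with a bar at each list's median and red for an unadjusted p under 0.05. Gpat3 lies furthest from 0, at -4.31, and 0 of the 113 genes passed the adjusted threshold in edgeR.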

How the data were processed

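RNA was sequenced from 11 libraries made with a low-input SMARTer kit. The authors deposited counts, whole numbers of reads per Ensembl gene (54532 genes, GRCm38 coordinates), not normalized. The submitters' processing notes name kallisto and mm10, and how the values became whole is not given in the sources used here. From these counts, levels (CPM with TMM factors) and the tests were computed in R 4.3.3 with edgeR 4.0.16, quasi-likelihood, age and sex as terms, and genes filtered by filterByExpr (minimum count 10, minimum total 15). Benjamini-Hochberg adjustment ran over all 13129 genes tested. Log2 CPM used a prior count of 2. Each SE of an edgeR log2 fold change was worked back from the test, as the size of the fold change divided by the square root of its F statistic. It therefore restates that test and is not a separate measure of spread. DESeq2 1.42.0, on genes with at least 1 count, and limma 3.58.1 (voom with quality weights) were alternatives. Depth was 6135736 to 24394532 counts, and 3 counts was the detection limit.

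The 10 genes and all lists were chosen with earlier results of these data known. Named pathway genes were, from each list, those called, the 3 highest per length and, in each direction, the smallest p if under 0.05. Socs1 was named in addition, after its value was seen. Replicates are separate samples in the labels, and every pair of them differed beyond sampling noise.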

Additional observations from a re-analysis of the deposited data

Results flagged for a closer look

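Within each age group, 1 library lay far from the others for 4 of the 10 genes, by Dixon's ratio of the gap to the range. For normally distributed values chance alone gives about 1 such library in 20 groups tested, a rate that need not hold for low counts with zeros. With every library but 1 at 0, as for Il7, the ratio is 1 whatever the remaining value. Il7 was at 0.115 CPM in young female 3 and at 0 in the other 5 young libraries, a difference of 2 counts. Fabp5 was at 12.3 CPM in middle-aged female 2, against at most 4.49 CPM in the other 4 middle-aged libraries. Dgat2 was at 8.86 CPM in middle-aged female 2, against at most 1.11 CPM in the others. In that library the neutrophil markers summed to 1834 CPM and the plasma cell markers to 352 CPM, against 87.5 to 159 CPM of the latter in the other 10. Its B cell (362 CPM) and dendritic cell (54.4 CPM) marker sums were also the highest, but other libraries came close. The B cell sum was 351.8 CPM in middle-aged female 3, 328.6 CPM in young female 3 and 314.0 CPM in young male 3. The dendritic cell sum was 50.9 CPM in young female 3. The part of these cells in the Fabp5 and Dgat2 levels was not tested. Acadm was at 168.2 CPM in young male 1, the shallowest library, against at most 99.96 CPM in the other young ones.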

How the results depend on the processing

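Of 13129 genes 3 were called for age, and this became 17 with every gene of at least 1 count, 126 with DESeq2, 138 with limma voom, 19 with a replicate block shared by both sexes, 5 without the sex term, 6 in libraries over 10000000 counts and 1 to 4 with each library left out. Of the 10 genes 0 were called, against 2 (Aqp9 and Fabp3) with every gene of at least 1 count, 3 with DESeq2, 3 with limma voom, 1 (Aqp9) with the shared block and 0 with any library left out. These calls of the 10 describe the contrast that their choice used, so nothing is read from them. Of the pathway genes 0 were called, against 1 (Gpat3) with every gene of at least 1 count, 2 with DESeq2 (Gpat3 and Socs3), 3 with limma voom (those and Socs1) and 1 (Gpat3) in libraries over 10000000 counts. Genes called for sex were 5, 8 with DESeq2 and 0 to 5 with a library left out, 0 without each young male. The interaction went from 0 to 1 with DESeq2. The cause of these changes was not tested. No label ties a replicate number to a batch or animal, and 4 of 5 same-number, same-sex pairs correlated over 0.1 (0.0287 to 0.428), short of the all 5 required to treat them as paired. Still, 13 of 15 same-number pairs passed 0.1 against 8 of 30 others, and 9 of 11 libraries were most like one of their own number, a hint of a shared origin from the data and not from the design. A replicate block within sex gave 2 genes called for age and log2 fold changes of 1.99, 5.15 and 5.36 for Aqp9, Il7 and Fabp3. Over all settings, Aqp9 stayed at 1.64 to 2.09, Il7 at 3.06 to 7.10 and Fabp3 at 3.78 to 5.44, and Dgat1 and Lipa kept their sign. The age sign turned in some settings for Cpt1a (-0.39 to 0.84), Fabp5 (-0.54 to 0.14), Dgat2 (-0.081 to 2.06), Acadl (-0.037 to 0.30) and Acadm (-0.38 to 0.051). Sex differences, none called, changed sign with limma voom (Aqp9 -0.017, Acadl -0.021), with the shared block (Aqp9 -0.040, Lipa -0.031), in libraries over 10000000 counts (Dgat1 -0.15, Acadm 0.029) and with a library left out (Aqp9 -0.15 to 0.25, Acadl -0.055 to 0.18, Lipa -0.073 to 0.21, Dgat1 -0.071 to 0.41, Dgat2 -0.12 to 1.32, Cpt1a -3e-04 to 0.60, Acadm -0.30 to 0.10). Depth limits Il7, Fabp3 and Dgat2 most, since 3 counts in young male 1 were worth 0.543 CPM.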
